A study of Mus musculus with 3 samples.

Results

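TR1 leukemia was compared with control lin- bone marrow across 16282 genes, which are all genes listed in either of these libraries, out of 16742 listed in any library of the series. A gene missing from the list of a library was set to 0 in it, and no other filter on measured values was used to set this number. TR is the TBLR1-RARα fusion, first identified in patients, in which TBLR1 (mouse gene Tbl1xr1) is joined to the retinoic acid receptor RARα (mouse gene Rara). The control library held lin- marrow cells of 3 wild-type C57BL/6 mice aged 6 to 8 weeks, pooled, and lin- cells are those left once cells with mature lineage markers are removed. The TR1 library held GFP+ marrow cells pooled from 3 C57BL/6 mice, also 6 to 8 weeks old by the labels, that had received TR leukemia cells in the third generation of transplantation. All TR1 cells descend from the leukemia of 1 primary mouse, and a retroviral vector drives TR and GFP from the same transcript in every transduced cell rather than at a myeloid stage. A further library, TR9, was made in the same way from the leukemia of another primary mouse, and is used here only to show where TR1 differed from it. Control cells were depleted of lineage cells and not transduced, whereas TR1 cells were sorted for GFP, so leukemia and the way of isolation cannot be told apart. Each condition had 1 library, so no difference has a replicate check.

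RARα is a nuclear receptor that binds DNA with RXR, holds corepressors at its target genes without ligand and exchanges them for coactivators when retinoic acid binds. Fusions of RARα cause acute promyelocytic leukemia (APL), in which cells accumulate near the promyelocyte, the stage of the granulocyte lineage that makes the primary granules. TBLR1 is a subunit of the NCoR/SMRT corepressor complex. Past the promyelocyte, a neutrophil precursor fills first the secondary granules, as a myelocyte that still divides, and then, once division has stopped, the tertiary granules.

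The libraries held 5488778 (control), 5571409 (TR1) and 5129662 (TR9) expected counts. Genes with at least 1000 FPKM (fragments corrected for gene length and for the size of the library) held 8.94% of the counts in control and 19.9% in TR1. Rara, which lies on chromosome 11 from 98927818 to 98974942 on the plus strand (GRCm38), had 58.9 expected counts in control against 1168 in TR1 and 359 in TR9. Its log2 ratio of FPKM in TR1 over control was 4.30, with a 95% interval of 3.92 to 4.70. Tbl1xr1, on chromosome 3 from 22076652 to 22216594, had 854, 1186 and 981 counts in the same order, and a log2 ratio of 0.45 in TR1 (0.32 to 0.58). Wherever 3 counts are given for a gene, they stand in this order of control, TR1 and TR9, and ranges in brackets are 95% intervals. Gene totals do not separate reads of the vector from those of the mouse genes. Defining promyelocyte genes were present in TR1, and in control at lower counts. Mpo had 31884 counts in control and 109146 in TR1, Elane 4272 and 45700, and Ms4a3 821 and 4573. Control held markers of several cell types, with 1240 counts of Hba-a1 of red cells, 1212 of Pf4 of platelets, 2520 of Prg2 of eosinophils and 6904 of Col1a1 of stroma. These genes had 10, 0, 5 and 71 counts in TR1. The T cell marker Cd3e was at 2 counts in control and 0 in TR1. Kit and Flt3, receptors of early progenitors, were found in both libraries, and Cd34 fell from 1039 counts to 83. In a bulk library, fewer cells of a type and less RNA per cell cannot be told apart. The Y-linked genes Uty, Eif2s3y, Kdm5d and Ddx3y had 241 to 477 counts in control and 0 to 2 in TR1. All 6 sex-linked genes checked, these 4 included, summed to 83.1 FPKM in control, 0.75 in TR1 and 2.87 in TR9. As the labels give no sex, the part of sex in these values was not tested.

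A gene was called a DEG where a conditional exact Poisson test of its counts gave a false discovery rate of at most 0.001 after Benjamini-Hochberg adjustment and the absolute log2 ratio of FPKM was at least 1. Values under 0.01 FPKM were set to 0.01. This test compares the reads of these 2 libraries, not the conditions. In TR1, 3437 genes (21.1%) were DEGs, of which 1317 (8.09% of all genes) were higher and 2120 (13%) lower than in control, so that 61.7% of the DEGs were lower. Over all genes the log2 ratio had a median of −0.29. FPKM scales by the library total, and TMM scaling, which levels the bulk of the genes, added 0.25 to the TR1 over control log2 ratios. With TMM, 1694 genes (10.4%) were higher and 1591 (9.77%) lower, and 48.4% of the DEGs were lower. This share was 49.3% with the median of ratios, 50.5% with the upper quartile and 73.3% with TPM. The number of members called in a gene list is therefore to be read against the 8.09% higher and 13% lower of all genes, and its median against −0.29. The plot of FPKM in both libraries shows where the main groups lay.

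**Figure D1:**
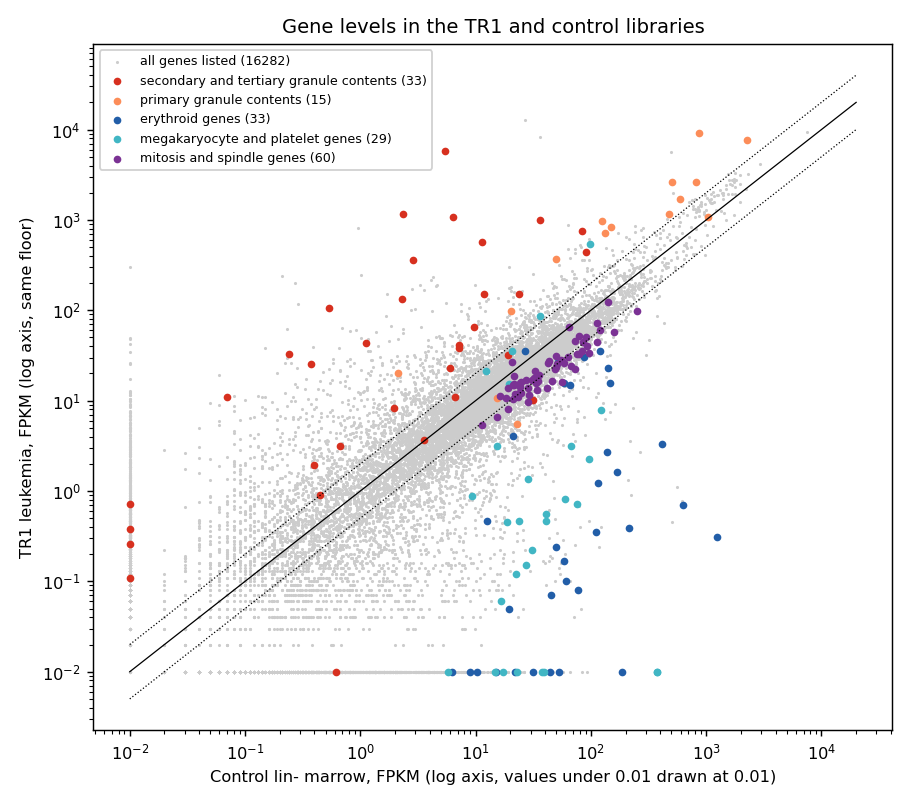
FPKM of each of the 16282 genes in control (x) and in TR1 (y), both on log axes, with values under 0.01 drawn at 0.01. The solid line marks equal levels and the dotted lines log2 ratios of 1 and −1, and colored points are members of 5 gene lists. Most granule genes lie above the lines, most erythroid and megakaryocyte genes below them, and the 60 mitosis genes lie in a band near the lower dotted line.

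Neutrophil granule genes had the highest shares of raised members among the 58 gene lists. Of 15 listed genes for the contents of primary granules, 12 (80.0%) were higher in TR1 and 1 was lower, with a median log2 ratio of 2.26 (1.72 in TR9 over control). Their summed level was 7060 FPKM in control against 28884 in TR1 and 30948 in TR9. Elane, neutrophil elastase, had 866 FPKM in control against 9103 in TR1 and 13178 in TR9, a 10.5-fold rise in TR1. Mpo, myeloperoxidase, which makes hypochlorous acid, had 2255, 7585 and 3514 FPKM, and was 3.36-fold higher in TR1. Prtn3 and Ctsg, 2 more serine proteases of these granules, had log2 ratios of 1.28 and 2.37. The gene that fell, Ctsc, encodes the protease that activates the other granule proteases, and its counts were 313 in control against 77 in TR1 and 119 in TR9. Of the 33 genes listed for secondary and tertiary granules, 23 (69.7%) were higher and 1 was lower. Their median log2 ratio was 3.46, and 2.52 when genes at 0 in a library were set to their bound of 3 counts. Olfm4, olfactomedin 4, rose from 21 counts to 10549 in TR1 (log2 ratio 8.94, 8.33 to 9.64) and had 5620 in TR9. Cd177, a neutrophil surface glycoprotein, had 8 counts in control against 1607 in TR1 and 1457 in TR9. Lcn2, lipocalin 2, which binds bacterial siderophores, had 29, 5044 and 1109 counts. Lcn2 was 171-fold higher in TR1 than in control.

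The granule genes did not all stand at the same height. Camp, the cathelicidin precursor, had 9 counts in control against 1165 in TR1 and 4842 in TR9, and Ngp had 72, 3696 and 16860, so both were lower in TR1 than in TR9. Ltf, lactoferrin, a main protein of secondary granules, had only 10, 48 and 56 counts, and was 4.73-fold higher in TR1 than in control. Chil3, a chitinase-like lectin on chromosome 3 from 106147554 to 106167564 (GRCm38), went the other way. It had 46 counts in control against 50254 in TR1 and 4031 in TR9. Its log2 ratio in TR1 was 10.07 (9.65 to 10.52). S100a8 and S100a9 encode the subunits of calprotectin, a calcium-binding protein that fills the neutrophil cytosol. S100a9 had 68 counts in control against 33021 in TR1 and 4185 in TR9, and at 12864 FPKM it was the gene of highest FPKM in TR1. S100a8 had 72, 16553 and 4486 counts. Of 10 S100 genes, 5 were higher and 1 was lower in TR1.

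Upstream sequence is shown for 3 genes that were higher in TR1 than in control. Of them, Lcn2 was on the secondary and tertiary granule list, S100a9 was on the S100 list, and Saa3 was on neither. Each is the 250 bases before the RefSeq start of the gene in GRCm38.p6, written 5′ to 3′ on the strand of the gene, with capitals on each match to TTNNGNAA on either strand, a form of the C/EBP site. Saa3, an acute-phase apolipoprotein that had 0 counts in control, is at chr7:46715677-46715926, S100a9 at chr3:90695722-90695971 and Lcn2 at chr2:32387740-32387989, all on the minus strand.
Saa3: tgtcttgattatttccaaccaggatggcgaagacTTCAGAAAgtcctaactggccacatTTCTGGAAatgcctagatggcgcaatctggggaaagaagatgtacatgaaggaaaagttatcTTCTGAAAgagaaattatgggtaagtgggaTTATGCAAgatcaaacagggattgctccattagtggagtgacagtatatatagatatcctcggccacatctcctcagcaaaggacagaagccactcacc
S100a9: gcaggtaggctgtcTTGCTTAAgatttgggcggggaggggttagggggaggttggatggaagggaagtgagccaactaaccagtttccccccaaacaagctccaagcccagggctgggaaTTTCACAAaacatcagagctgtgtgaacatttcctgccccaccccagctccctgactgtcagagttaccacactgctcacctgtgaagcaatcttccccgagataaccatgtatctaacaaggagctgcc
Lcn2: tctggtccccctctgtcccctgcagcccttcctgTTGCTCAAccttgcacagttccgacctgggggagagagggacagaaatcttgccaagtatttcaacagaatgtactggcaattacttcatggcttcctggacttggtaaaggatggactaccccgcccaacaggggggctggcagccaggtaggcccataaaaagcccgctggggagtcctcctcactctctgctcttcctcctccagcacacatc
Saa3 has 4 matches, S100a9 2 and Lcn2 1. Of the 34 genes on the secondary and tertiary granule list, 28 had a promoter entry, and 17 of these (60.7%) held the motif, whereas 36.9% of all 27025 RefSeq promoters and 29.8% of the 12690 of tested genes did. The motif GAGGAA, the core of sites of the ETS factor PU.1, was in 14 of the 28, in 23.1% of all promoters and in 22.9% of those of tested genes. Lists that were mostly lower in TR1 held these motifs too. GAGGAA was in 12 of 23 megakaryocyte and platelet promoters (52.2%) and in 6 of 22 erythroid promoters (27.3%). The C/EBP motif was in 10 of these 23 (43.5%) and 10 of these 22 (45.5%). It was in 35.1% of promoters of all genes higher in TR1 and in 27.3% of those lower. CpG-rich promoters, those with many CG pairs for their content of C and G, were 3.57% of the secondary and tertiary granule promoters. They were 59.6% of promoters of tested genes and 34.5% of all RefSeq promoters. The part of base content in the motif shares was not tested. These motifs can overlap other sites, and a match is a match of letters only.

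The 10 genes furthest higher in TR1 than in TR9, among those that reached 10 FPKM in either, were all also higher in TR1 than in control, and were picked by the first of these differences. Chil3, given above, was 1 of them. Saa3, on chromosome 7, had 0 counts in control against 838 in TR1 and 9 in TR9. The rise in TR1 was at least 275-fold. Il1r2, the decoy receptor of interleukin-1 on chromosome 1 from 40074079 to 40125231, had 2, 1515 and 47 counts. Cyp2a5, a cytochrome P450 on chromosome 7 from 26835305 to 26843548, had 2, 2313 and 78 counts, and a near-identical family of Cyp2a genes makes its level less certain. Ccr1, a receptor of inflammatory chemokines, had 71, 798 and 67 counts, and Ifitm6, of the interferon-induced transmembrane family, 12, 662 and 34. Control and TR9 stood close together for Ccr1, and TR1 was 11.1-fold above control. Crispld2, a secreted protein that binds lipopolysaccharide, had 0 counts in control against 998 in TR1 and 55 in TR9, a rise of at least 328-fold in TR1. Of these genes Chil3, Il1r2, Cyp2a5 and Crispld2 were also called higher in TR9 than in control. In the direct comparison of TR9 with TR1, the log2 ratio was −6.42 for Saa3 (−7.55 to −5.49), −4.89 for Il1r2, −4.77 for Cyp2a5, −4.06 for Crispld2, −4.16 for Ifitm6 and −3.45 for Ccr1. The remaining genes were Nnat, with 5, 162 and 5 counts, Clec4b2, with 0, 66 and 5, and the nucleoside transporter Slc28a2b, with 26.9, 495 and 23.6. The plot of named genes shows these differences beside the granule and fate genes.

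**Figure D2:**
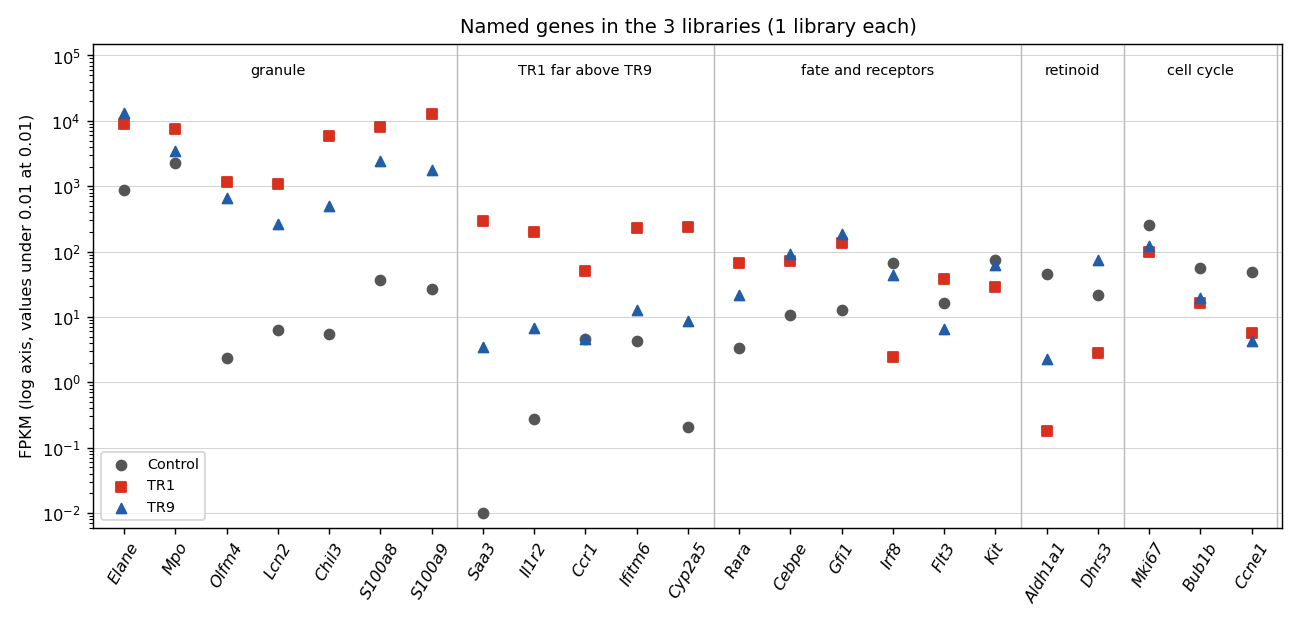
FPKM of 23 named genes (log axis, values under 0.01 at 0.01) in the control, TR1 and TR9 libraries, 1 point for each library. TR1 lies far above TR9 for S100a9, Saa3, Il1r2, Ccr1, Ifitm6 and Cyp2a5, below it for Irf8, Aldh1a1 and Dhrs3, and near it for Elane, Cebpe, Mki67 and Bub1b.

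Many surface receptors of myeloid cells were also higher in TR1. Of 48 C-type lectin and paired immune receptors, 20 (41.7%) were higher and 9 (18.8%) lower. In TR9 these counts were 14 and 12. Compared directly, 11 of the listed genes were higher in TR1 than in TR9 and 3 lower, where 2.31% of 15706 genes were higher in TR1 and 4.34% lower. Cd33, a sialic acid-binding receptor, had 23.6 counts in control against 1198 in TR1 and 238 in TR9, a log2 ratio of 5.68 in TR1 (5.10 to 6.33). Mcemp1 had 17, 1084 and 541 counts, and Clec5a, which signals through DAP12, had 114, 2580 and 1054. Siglece had 25, 283 and 27 counts, so TR1 alone of the 3 libraries was high. The members that fell included Treml1 of platelets, with 249, 0 and 0 counts, and Cd200r3 of basophils and mast cells, with 90, 0 and 0.

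Cytokine and growth factor receptors moved in both directions, 21 of 68 (30.9%) higher and as many lower. Csf3r, the receptor of G-CSF, the main growth factor of neutrophils, had 401 counts in control against 3745 in TR1 and 1931 in TR9 (log2 ratio 3.17 in TR1). Csf2rb, the shared beta chain of the GM-CSF and interleukin-3 receptors, had 632, 3156 and 920 counts. Csf1r, the M-CSF receptor of macrophages, fell from 510 counts to 141. Kit, the stem cell factor receptor, had 2115, 853 and 1684 counts, and fell 2.52-fold in TR1. Flt3, the FLT3 ligand receptor, had 327, 792 and 126 counts, so it was raised in TR1 (log2 ratio 1.25, 1.06 to 1.44), and TR9 was below TR1 by −2.53 on the log2 scale (−2.81 to −2.26). The receptor of erythropoietin, Epor, had 316, 0 and 1 counts, so it was at 0 in TR1. Fas, a death receptor, had 2, 69 and 77 counts.

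Transcription factors of granulocyte and monocyte fate were more often higher than lower in TR1. Of 40 on the list, 17 (42.5%) were higher in TR1 and 6 lower. Gfi1, a repressor needed for neutrophil fate, had 193 counts in control against 2002 in TR1 and 2553 in TR9 (log2 ratio 3.37 in TR1, 3.15 to 3.59). Cebpe, the C/EBP factor of secondary granules, on chromosome 14 from 54710360 to 54712174, had 71, 482 and 571 counts. Other C/EBP genes were also higher, with log2 ratios of 3.05 for Cebpd, 2.49 for Cebpb and 1.36 for Cebpa. Irf8, which directs monocyte and dendritic cell fate, lies on chromosome 8 from 120736358 to 120756694. It had 1059 counts in control against 39 in TR1 and 644 in TR9, which was 27.6-fold lower in TR1. The log2 ratio of TR9 over TR1 for Irf8 was 4.17 (3.70 to 4.67). Trib1, a pseudokinase that marks C/EBPα for degradation, had 5, 147 and 333 counts, and the HLH inhibitors Id1 and Id2 had 9, 138 and 111 counts and 27, 332 and 101. Among 43 immediate early genes and feedback regulators of MAPK signaling, 14 were higher and 9 lower. Egr1, an early response factor, had 66, 693 and 1364 counts and Fos 42, 405 and 351, whereas the phosphatase Dusp3 had 155, 9.04 and 13.7.

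Genes that respond to retinoic acid or make and remove it moved in both directions. Of 32, 6 (18.8%) were higher and 7 (21.9%) lower, with a median log2 ratio of −0.19, which was 0.06 with TMM scaling. Dhrs3, a retinaldehyde reductase that is itself a retinoic acid target, lies on chromosome 4 from 144892827 to 144928209. Its counts were 185 in control against 21 in TR1 and 615 in TR9, so it fell 7.74-fold in TR1 and stood above control in TR9. Aldh1a1, which makes retinoic acid from retinaldehyde, had 512, 2 and 23.9 counts, a log2 ratio of −8.00 in TR1 (−11.05 to −6.14), and its relative Aldh1a7 had 178, 0 and 1.09. Tgm2, transglutaminase 2, a target of retinoic acid, had 197, 2 and 3 counts. Rarb, a direct RAR target, rose from 2 counts to 48, and Dhrs9, a retinol dehydrogenase, from 1 to 93, with 12 in TR9. Among the 19 genes of the TBLR1 corepressor complex and its partners, Rara and Rxra, its RXR partner (81, 228 and 199 counts), were higher. Pml, of nuclear bodies, had 965, 392 and 1128 counts, and Stat5b 1023, 441 and 539, and both were lower in TR1.

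Genes of red cells, platelets, eosinophils, mast cells and early progenitors were for the most part lower in TR1. Of 33 erythroid genes, 31 (93.9%) were lower and none was higher, with a median log2 ratio of −8.43, or −6.72 with genes at 0 set to their bound. Their summed level was 4467 FPKM in control and 213 in TR1. Of 29 megakaryocyte and platelet genes 24 were lower and 2 higher (F13a1 and Serpine2), of 23 genes of eosinophils, basophils and mast cells 17 fell and none rose, and of 26 stem and multipotent progenitor genes 19 were lower and 2 higher (Ly6a and Flt3). Gata1, the master factor of red cells and platelets, had 999 counts in control against 5 in TR1 and 6 in TR9. Klf1 had 918, 3 and 5 counts, Gfi1b 870, 0 and 1, and Zfpm1, the partner of GATA1, 1523, 1 and 9. Gfi1b was at least 294-fold lower in TR1, while its paralog Gfi1 was 10.3-fold higher. Of 22 erythroid, megakaryocyte and mast cell transcription factors, 16 were lower and none higher. Sox4, of progenitors, had 228, 0 and 6 counts, and Hoxa9 and Meis1, which uphold stem cell renewal, had 144, 0 and 0 counts and 283, 1.48 and 3.05. As control held the cells that carry these genes and TR1 was sorted for GFP, the part of isolation in these values was not tested. Monocyte and macrophage genes were mixed, 11 of 32 (34.4%) higher and 14 (43.8%) lower, and their summed level was 1010 FPKM in control and 7004 in TR1. Of these sums Ly6c2, which has a near-identical copy, held 499.6 and 5593 FPKM. C1qa, C1qb and C1qc, complement genes of macrophages, had 86 to 104 counts in control and 0 to 5 in TR1. Of 27 dendritic cell and MHC class II genes, 11 were lower and 2 higher. Of 32 T and NK lineage genes 4 were higher (Thy1, Tcf7, Nkg7 and Cd6) and 6 lower, and of 25 B lineage genes 1 was higher (Igll1) and 7 lower. Thy1 had 34 counts in control against 1634 in TR1 and 742 in TR9, and Igll1, a pre-B receptor chain, 2, 63 and 847.

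The erythroid genes Hbb-bs (chr7:103827929-103828178, minus strand) and Epor (chr9:21963577-21963826, minus strand) are shown as 250 bases before the RefSeq start in GRCm38.p6, for the GATA motif. Capitals mark AGATAA or TGATAA on either strand, the letters that GATA factors bind.
Hbb-bs: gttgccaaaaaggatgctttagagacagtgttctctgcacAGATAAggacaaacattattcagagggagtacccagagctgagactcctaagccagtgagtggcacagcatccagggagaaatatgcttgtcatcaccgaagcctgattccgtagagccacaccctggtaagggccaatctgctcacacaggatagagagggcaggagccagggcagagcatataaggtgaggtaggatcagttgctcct
Epor: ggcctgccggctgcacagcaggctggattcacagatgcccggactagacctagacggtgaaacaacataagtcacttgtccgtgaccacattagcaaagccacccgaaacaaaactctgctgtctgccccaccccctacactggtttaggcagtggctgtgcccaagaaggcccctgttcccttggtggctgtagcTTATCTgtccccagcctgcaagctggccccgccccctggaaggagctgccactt
Of 35 erythroid genes on the list 22 had a promoter entry, and 14 of these (63.6%) held the motif. It was in 12.3% of the 1697 promoters of genes lower in TR1, and in 10.3% of those of all tested genes. Of all RefSeq promoters 17.0% held it. It was also in 7 of 23 megakaryocyte and platelet promoters (30.4%). On the secondary and tertiary granule list, which was mostly higher in TR1, 7 of 28 (25%) held it. CpG-rich promoters were 13.6% of the erythroid promoters and 59.6% of those of tested genes, and the part of base content in the motif shares was not tested. A match is a match of letters only, and the part of Gata1 in these values was not tested. Hbb-bs, adult beta globin, had 626 counts in control against 0 in TR1 and 8.22 in TR9, and part of its reads was shared with other globin genes.

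**Figure D3:**
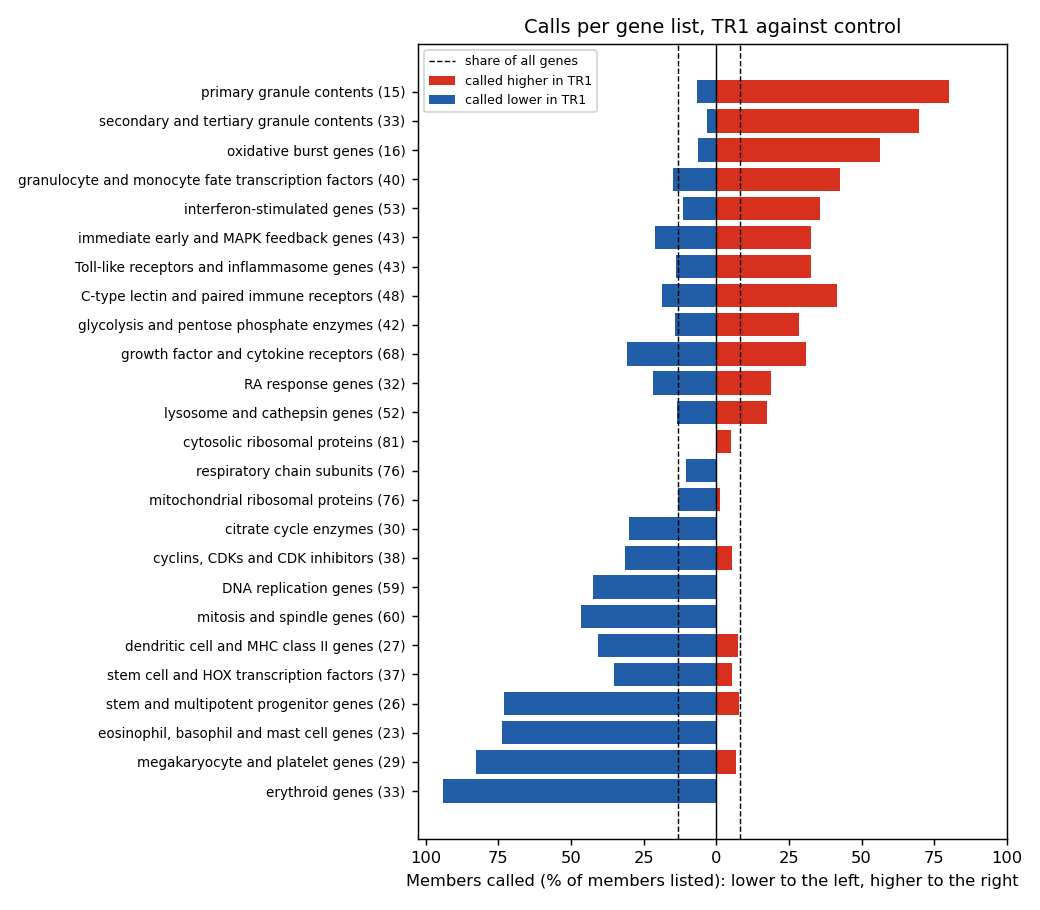
Percent of listed members called higher (red, to the right) and lower (blue, to the left) in TR1 than in control for 25 gene lists, with the number of members in brackets. Dashed lines mark the share of all genes, 8.09% higher and 13% lower. Granule lists stand at the top with up to 80.0% higher, and erythroid genes at the bottom with 93.9% lower.

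Cell division genes were lower in TR1. Of 60 mitosis and spindle genes, 28 (46.7%) were lower and none was higher, with a median log2 ratio of −1.0 and a summed level of 3206 FPKM in control and 1643 in TR1. Only 1 of the 60 had a ratio above 0. Of 59 DNA replication genes, 25 (42.4%) were lower and none higher, with a median of −0.85. With TMM scaling, 14 mitosis genes and 10 replication genes were lower, with medians of −0.75 and −0.60, and with TPM 40 and 34 were lower. With edgeR's exact test at an assumed biological variation of 0.2, 1 mitosis gene and 2 replication genes were DEGs, while 10 primary and 21 secondary and tertiary granule genes and 30 erythroid genes were. In TR9 the medians were −0.86 and −0.89. Mki67, the proliferation marker Ki-67, on chromosome 7 from 135689784 to 135716361, had 14079, 5586 and 6484 counts in the order control, TR1 and TR9, and fell 2.57-fold in TR1. Top2a, the topoisomerase that untangles replicated DNA, had 4901, 1764 and 2023 counts. Bub1b, a spindle checkpoint kinase, had 1146, 334 and 372 counts, and its log2 ratio in TR1 was −1.80 (−1.98 to −1.63). Tk1, thymidine kinase of S phase, had 501, 119 and 272 counts, and Rrm1, of ribonucleotide reductase, 4058, 1377 and 1361. Control was above TR1 in each of these 5 genes by more than the counting error, and of them Tk1 was called between TR9 and TR1.

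Several cyclins fell as well. Ccne1, cyclin E1, which opens S phase, had 533 counts in control against 65 in TR1 and 44 in TR9 (8.35-fold lower in TR1). Ccnd2, cyclin D2, had 842, 138 and 70 counts, and Ccna2, cyclin A2, had 2321, 679 and 722. Of 38 cyclins, CDKs and CDK inhibitors, 12 (31.6%) were lower and 2 higher. The higher members were Cdk6, a partner of D cyclins (774, 1794 and 2070 counts), and Cdkn1c, an inhibitor of CDKs (3, 55 and 12). Bcl2, which holds back cell death, had 417, 75 and 171 counts, and Pmaip1, a BH3-only gene that promotes it, 15, 151 and 51.

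Promoters of 2 mitosis genes are given for the CCAAT box, bound by NF-Y. Bub1b (chr2:118597961-118598210, plus strand) and Cdc20 (chr4:118437344-118437593, minus strand), the activator of the anaphase-promoting complex, are shown as the 250 bases before the RefSeq start in GRCm38.p6, with CCAAT on either strand in capitals.
Bub1b: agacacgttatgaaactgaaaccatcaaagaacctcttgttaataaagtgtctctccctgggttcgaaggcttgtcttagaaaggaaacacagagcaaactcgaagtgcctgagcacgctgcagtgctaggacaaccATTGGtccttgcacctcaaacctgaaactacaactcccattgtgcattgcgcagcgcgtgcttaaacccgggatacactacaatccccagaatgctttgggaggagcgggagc
Cdc20: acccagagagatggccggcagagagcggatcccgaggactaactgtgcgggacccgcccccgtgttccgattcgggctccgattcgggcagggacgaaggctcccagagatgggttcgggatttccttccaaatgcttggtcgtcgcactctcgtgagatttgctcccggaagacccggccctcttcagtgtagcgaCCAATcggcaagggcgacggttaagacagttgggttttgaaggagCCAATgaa
Cdc20 had 780 counts in control against 324 in TR1 and 345 in TR9. Of 53 mitosis genes with an entry 35 (66.0%) held CCAAT, and of 49 replication genes 26 (53.1%). The share was 34.5% of all RefSeq promoters and 36.2% of those of tested genes. It was 36.1% for all genes lower in TR1, and 13 of 22 erythroid promoters (59.1%) held CCAAT too. CpG-rich promoters were 86.8% of the mitosis promoters, 77.6% of the replication promoters and 59.6% of those of tested genes. The part of base content was not tested here either. A match is a match of letters only.

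Genes of protein synthesis and energy metabolism differed in their median ratios. Of 81 cytosolic ribosomal proteins 80 had a ratio above 0, with a median log2 ratio of 0.62 and a narrow spread. Only 4 passed the threshold for a call, and 19 did with TMM and 1 with TPM. In TR9 the median was 0.24. Rps19, which is needed for red cell formation, had 1174 counts in control against 2495 in TR1 and 1556 in TR9. Of 50 genes that assemble ribosomes 2 were lower and none was higher, with a median of −0.45. Nop58, of nucleolar ribonucleoproteins, had 2161, 856 and 984 counts. Of 76 mitochondrial ribosomal proteins 10 (13.2%) were lower and 1 higher, and of 76 respiratory chain subunits 8 (10.5%) were lower, so these shares were near and below the 13% of all genes. Of 30 citrate cycle enzymes 9 were lower, a share above that of all genes. With TMM these numbers of lower genes were 3, 2 and 3, and with TPM 22, 20 and 12, so the calls depended on scaling.

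Of 42 glycolysis and pentose phosphate enzymes 12 (28.6%) were higher and 6 (14.3%) lower, with a median log2 ratio of 0.71, and with TMM 20 were higher and 5 lower (10 and 8 with TPM). Forms of the same enzyme differed in direction. Pkm, the pyruvate kinase of most cells, had 3618 counts in control against 10480 in TR1 and 6944 in TR9, whereas Pklr, the red cell and liver form, had 1282, 0 and 1. Hk2, hexokinase 2, rose from 292 counts to 818 and Hk1 fell from 3265 to 946. Slc2a1, the glucose transporter GLUT1, had 42, 219 and 156 counts, and Slc2a3 (GLUT3) 572, 47 and 35. Slc16a3, a lactate exporter, had 92, 795 and 341 counts, 8.44-fold higher in TR1. Fbp1, which runs the opposite way in gluconeogenesis, had 15, 231 and 897 counts.

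**Figure D4:**
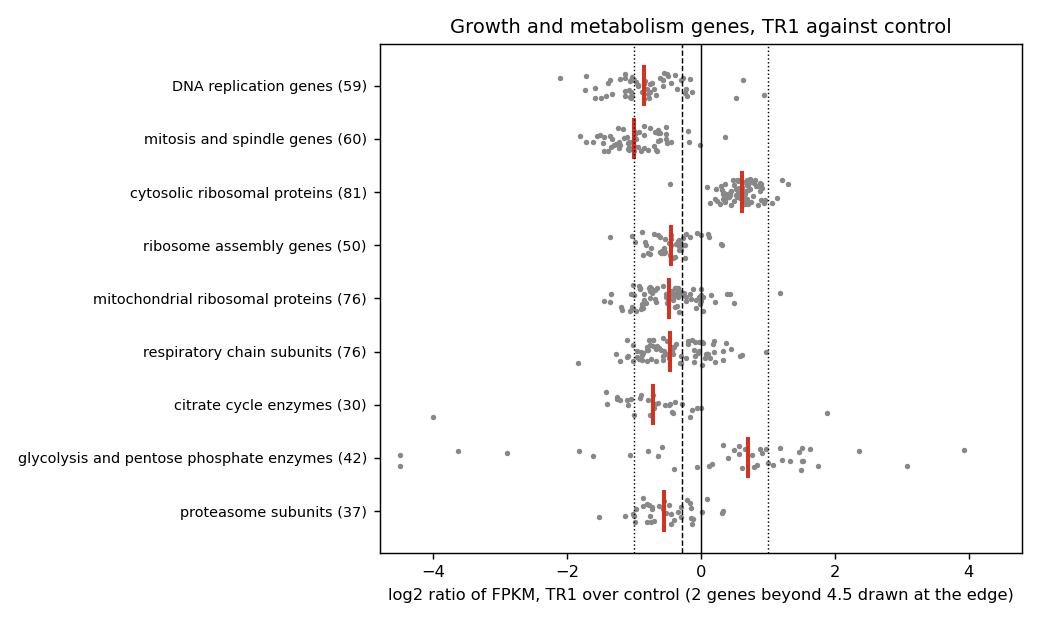
log2 ratio of FPKM in TR1 over control for each member (gray points) of 9 gene lists of growth and metabolism, with red bars at the median of a list and the number of members in brackets. The dashed line marks the median of all genes (−0.29), dotted lines mark −1 and 1, and 2 genes beyond 4.5 are drawn at the edge. Ribosomal protein genes form a tight group above 0 (median 0.62), and mitosis and replication genes lie below (−1.0 and −0.85).

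Host defense genes were partly raised. Of 53 interferon-stimulated genes 19 (35.8%) were higher in TR1 and 6 (11.3%) lower, while 26 were higher in TR9. Compared directly, 13 were lower in TR1 than in TR9 and 5 higher. Slfn4, a Schlafen gene of myeloid cells, had 72.4 counts in control against 4297 in TR1 and 3062 in TR9, and Oas2, a sensor of double-stranded RNA, had 25, 773 and 557. Of 43 Toll-like receptor and inflammasome genes, 14 (32.6%) were higher and 6 lower. Tlr7, the sensor of single-stranded RNA, had 25, 405 and 130 counts, and Cd180, of B cells and macrophages, 168, 1 and 5. Of 16 oxidative burst genes, 9 were higher, among them Cybb, the catalytic NADPH oxidase subunit, with 255, 1758 and 441 counts. The member that fell, Epx, is eosinophil peroxidase. None of 25 MHC class I and presentation genes was lower and 6 were higher. In TR9, 15 of 26 were higher than in control and none was lower. Compared directly, 5 of these genes were lower in TR1 than in TR9 and 1 was higher. H2-Q9 had 0, 423 and 473 counts and H2-Q10 0, 209 and 29.9, but the H2-Q genes are near-identical copies and reads could be split between them. Fgr, a Src-family kinase of phagocytes, had 20, 239 and 48 counts.

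Of 73 secreted cytokines and growth factors 9 (12.3%) were higher and 19 (26.0%) lower, with a median log2 ratio of −1.54, which was 0 with genes at 0 set to their bound. Single genes of other kinds were far higher in TR1, among them Thbs4 and Penk, which were chosen for their values. Thbs4, a thrombospondin of the extracellular matrix on chromosome 13 from 92751590 to 92794818, rose from 17 counts to 14605, with 9975 in TR9, a log2 ratio of 9.72 in TR1 (9.05 to 10.50). Penk, the precursor of enkephalins, had 8, 1975 and 863 counts. F7, coagulation factor VII, had 4, 412 and 308 counts, whereas Vwf, von Willebrand factor, had 1179, 23 and 30. Dmrt1, a transcription factor of the testis, had 0 counts in control against 430 in TR1 and 319 in TR9, so it rose by at least 141-fold in TR1. Of 19 germ cell and piRNA genes 5 (26.3%) were higher and 3 (15.8%) lower. Tdrd9, a helicase of the piRNA pathway, had 6, 800 and 863 counts, and Stag3, a meiotic cohesin subunit, 50, 1136 and 1522. Rec8, another meiotic cohesin subunit, had 187, 0 and 1, the opposite direction. Nt5e (CD73), which makes adenosine, had 2, 204 and 149 counts, and Ada, which breaks it down, 68, 441 and 304. Of 43 glutathione and antioxidant genes 16 (37.2%) were lower and 8 (18.6%) higher. Nqo1 and Srxn1, targets of NRF2, had 88, 5 and 15 counts and 113, 5 and 60, while Gpx3 had 71, 674 and 249. Rn7sk, the small nuclear 7SK RNA on chromosome 9 from 78175303 to 78175633, had 104, 1482 and 152 counts. Small noncoding RNAs held 0.067%, 0.099% and 0.061% of the counts of control, TR1 and TR9. The part of library preparation in the Rn7sk counts was not tested.

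Genes low in TR1 and high in TR9 marked the other side of the direct comparison. Of the 15706 genes listed in either, 681 were lower in TR1 and 363 higher. Xlr, an X-linked lymphocyte gene, had 10.4 counts in control against 0 in TR1 and 284 in TR9. Minar1 had 0, 8 and 739 counts, Plagl1, an imprinted zinc-finger gene, 7, 4 and 370, and Strc 2, 1 and 310. For these genes control and TR1 were both near 0, and TR9 stood apart. Tdrkh of the piRNA pathway had 50, 0 and 180 counts and Sgce, epsilon-sarcoglycan, 29, 0 and 92. These were present in control, absent from the TR1 counts and above control in TR9.

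Genes of chromosome 15 had a higher median ratio in TR1 than those of any other chromosome. Among genes with at least 1 FPKM in both libraries, the median log2 ratio was 0.23 over 399 genes of chromosome 15 (quartiles −0.18 and 0.77). The medians of the other 19 chromosomes ranged from −0.38 to −0.13. Chromosome 15 thus stood 0.46 above all genes, a 1.38-fold difference, and 77.2% of its genes were above the median of all genes, where the other chromosomes had 42.4% to 56.7%. Scaling does not enter this difference. Of 631 genes of chromosome 15, 14.3% were called higher and 8.24% lower. On the other chromosomes 6.04% to 9.84% were higher and 9.53% to 17.9% lower. In TR9 over control the chromosome 15 median was 0.10, and the others ranged from −0.24 to −0.00. In TR9 over TR1 it was −0.14, with the others at 0.07 to 0.19. When the 399 genes were cut along the chromosome into 8 blocks of 49 or 50, the medians in TR1 were −0.02, 0.27, 0.45, 0.34, 0.16, 0.16, 0.35 and 0.17. Each of these was above the medians of all other whole chromosomes. In TR9 they were −0.16, 0.05, 0.22, 0.04, −0.07, 0.02, 0.38 and 0.46. The highest block of TR1 holds Myc, on chromosome 15 from 61985391 to 61990374, which had 1975, 2665 and 2212 counts. Its log2 ratio of 0.41 (0.32 to 0.49) did not reach the threshold for a call. No copy number was measured, and the part of DNA in this difference was not tested.

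**Figure D5:**
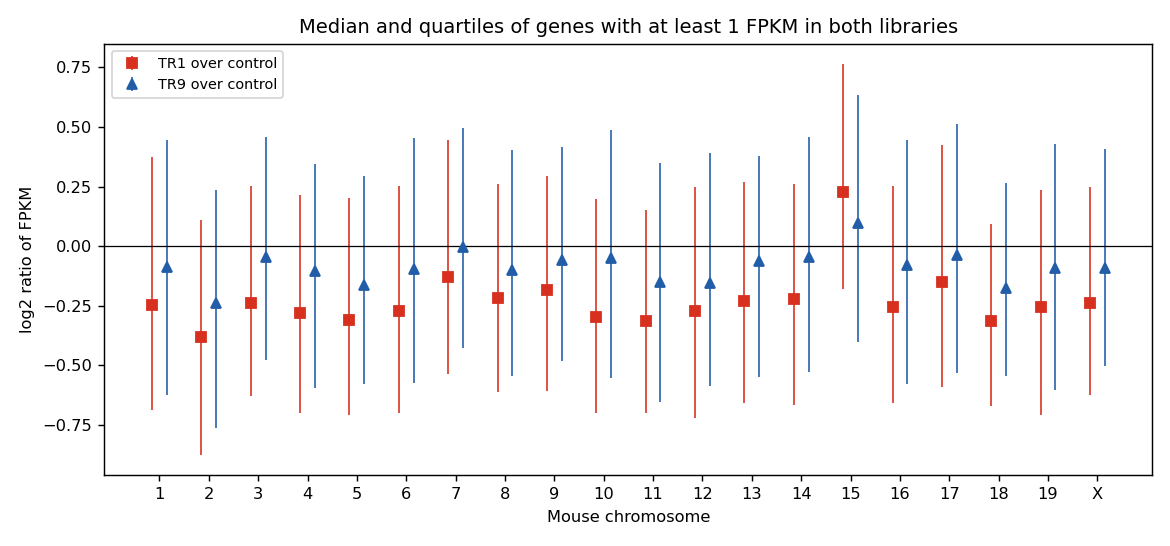
Median log2 ratio of FPKM of genes with at least 1 FPKM in both libraries, by mouse chromosome, for TR1 over control (red squares) and TR9 over control (blue triangles), with lines from the lower to the upper quartile. Chromosome 15 is at 0.23 in TR1, and the other 19 chromosomes lie between −0.38 and −0.13.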

How the data were processed

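Bulk RNA-seq was analysed in 1 library of each of control, TR1 and TR9, and each library pooled 3 mice. The authors deposited per gene the expected count estimated by RSEM, without normalization, and the FPKM scaled by RSEM for length and library total. The submitters' processing notes name BWA, Bowtie, RSEM and mm9, without versions. Because GRCm38 tables were used here, the RefSeq gene table (GRCm38.p6) gave names only, for 16698 of 16742 IDs, and coordinates are those of GENCODE M21 or of the RefSeq promoter table.

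After rounding, expected counts of 2 libraries were set against each other in an exact Poisson test conditional on their sum (scipy 1.17.1), adjusted by Benjamini-Hochberg. The log2 ratio used FPKM, floored at 0.01. The 95% intervals are Clopper-Pearson intervals, which include no error other than that of counting. A fold against a gene at 0 was computed against 3 counts per library and is a lower bound. The 58 gene lists had 2274 entries, of which 2269 matched a gene, and lists and members were chosen with earlier results of these data known. TMM came from edgeR 4.0.16 and the median of ratios from DESeq2 1.42.0. The count test, its intervals, the list median and the TMM shift were tested on simulated counts, and the other steps were not. Between 19.9% and 21.2% of listed genes had expected counts that were not whole (tolerance 0.005), since RSEM splits reads between similar genes.

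The rule for named genes took Tbl1xr1 and Rara, up to 4 DEGs of each list with the largest ratio and at least 5 FPKM in control or TR1, the 15 highest and 15 lowest DEGs with at least 10 FPKM, the 10 genes of highest FPKM in each library, and the 10 genes furthest apart in each direction between TR1 and TR9 with at least 10 FPKM. It gave 244 genes, of which some are reported. The other genes named, among them Mki67, Top2a, Myc, Cebpe, Gfi1, Csf3r, Kit, Flt3, Camp, Thbs4, Penk, Rarb, Rn7sk, Pkm and Siglece, were chosen after their values were seen.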

Additional observations from a re-analysis of the deposited data

Results flagged for a closer look

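In all, 19 genes were called in opposite directions against control in TR1 and TR9, and each was also called in the direct comparison of TR9 with TR1. That comparison is of 2 libraries that each have no replicate, and both comparisons with control share the control library. Values are expected counts in control, TR1 and TR9 and the log2 ratio of TR9 over TR1. Higher than control in TR1 and lower in TR9 were Gpr65 (76, 263 and 32 counts, −2.92), Lpcat2 (77, 179 and 23 counts, −2.84), Sla (528, 1632 and 217 counts, −2.79), Flt3 (327, 792 and 126 counts, −2.53). Lower than control in TR1 and higher in TR9 were Chchd10 (116, 58 and 257, 2.27), Anxa4 (104, 45 and 255, 2.62), Ptpdc1 (51, 15 and 134, 3.27), Bicd1 (57, 14 and 130, 3.36), Serpinf1 (374, 126 and 1217, 3.39), Inppl1 (42, 10 and 115, 3.64), Igfbp7 (31, 6 and 70, 3.67), Myo6 (91, 15 and 258, 4.21). The same held for Tie1 (115, 16 and 311, 4.41), Dhrs3 (185, 21 and 615, 4.73), Angptl2 (24, 2 and 55, 4.95), Lhfp (37, 9 and 292, 5.13), Syde1 (23, 0 and 71, 8.71), Sgce (29, 0 and 92, 10.04), Tdrkh (50, 0 and 180, 10.36). Syde1, Sgce and Tdrkh were at 0 counts in TR1, so their ratio rests on the floor of 0.01 FPKM. Flt3 and Gpr65 are receptors, Sla is an adaptor of Src-family signaling, and Tie1, Angptl2 and Igfbp7 are known from endothelium or secreted matrix.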

How the results depend on the processing

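No paired analysis was possible because each condition had 1 library, and no replicate could be left out. Of 13 alternatives, the number of DEGs changed by over 1.5 times with edgeR's exact test at an assumed biological variation of 0.2 (657 higher and 992 lower), at 0.4 (170 and 347) and with an absolute log2 ratio of 2 (685 and 1133). Between TR9 and TR1, the 0.2 setting gave 188 genes higher in TR9 and 94 lower, instead of 681 and 363. The percent of DEGs that were lower was 61.7%, and 48.4% with TMM, 49.3% with the median of ratios, 50.5% with the upper quartile and 73.3% with TPM. The median of all genes, −0.29, was −0.040, −0.054, −0.078 and −0.52 in these scalings and −0.15 with a pseudocount of 1 FPKM. The chromosome 15 difference of 0.46 ranged from 0.43 to 0.51. Of the 244 named genes, 121 kept direction and call under every alternative that could be run for them. The median of Fc and complement receptors less that of all genes was 0.040 with a minimum of 10 counts, and Ppia had a log2 ratio of −0.22 with TPM, both reversed. With the 0.4 setting no mitosis, replication or primary granule gene was a DEG, while 24 erythroid and 12 secondary and tertiary granule genes were. The cause of these changes was not tested. At this depth, 3 counts are 0.538 ppm of the TR1 library.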

Other observations

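Motility and tissue-entry genes were divided. Of 39 integrins and adhesion molecules 8 were higher in TR1 and 14 lower, where 8.09% of all genes were higher and 13% lower. Itgb2l, a beta integrin chain of neutrophils, had 1, 159 and 40 counts in control, TR1 and TR9, whereas Itga2, the collagen-binding chain of platelets, had 122, 0 and 0, and Esam, of endothelium and stem cells, 71, 0 and 0. Of 30 chemoattractant receptors 8 were higher and 5 lower. Gpr84, a receptor of medium-chain fatty acids, had 5, 70 and 18 counts, and Cx3cr1, the fractalkine receptor of monocytes, 142, 33.2 and 55.1. Of 36 matrix-degrading and membrane proteases 7 (19.4%) were higher and 8 (22.2%) lower. Mmp8, neutrophil collagenase, had 15, 591 and 129 counts, and Timp3, a protease inhibitor of matrix, 589, 7.28 and 4.17. Of 26 genes of eicosanoid and lipid mediator synthesis 7 were higher and 9 lower, and Alox15 and Alox12, of 2 lipoxygenases, had 181, 0 and 0 counts and 716, 5.01 and 3.16.

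Among genes of chromatin, iron and the secretory pathway, some lists had shares of calls above those of all genes and others did not. Of 46 DNA methylation and Polycomb genes 9 (19.6%) were lower and 3 higher. The de novo methyltransferases Dnmt3a and Dnmt3b had 651, 238 and 279 counts and 271, 89 and 120, while Tet2, which oxidizes methylcytosine, had 416, 1211 and 980. Of 58 histone methylation and acetylation enzymes 4 (6.90%) were lower and 1 higher, both shares below those of all genes. Of 30 iron genes 8 (26.7%) were lower and 7 (23.3%) higher. Tfr2, a transferrin receptor of red cell precursors, had 782, 8 and 15 counts, and Steap3, the ferrireductase of the same cells, 879, 50 and 31, whereas Heph, a ferroxidase, had 6, 227 and 966 and was higher in TR9 than in TR1. None of 37 endoplasmic reticulum and unfolded protein response genes was lower and 5 (13.5%) were higher, among them Xbp1, the factor that expands this compartment, with 589, 1863 and 1875 counts. Of 37 proteasome subunits 3 (8.11%) were lower, below the share of all genes, and among them Psmc3, an ATPase of the cap, had 952, 338 and 334. Of 32 cholesterol genes 3 were higher and 6 (18.8%) lower, and of 33 imprinted genes 3 (9.09%) were higher and 5 (15.2%) lower, close to the shares of all genes, with Ascl2 at 3, 66 and 31 counts and Dcn, a matrix proteoglycan, at 142, 1 and 5.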
